A study of Oryctolagus cuniculus with 9 samples.

Results

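Collagens are the main structural proteins of the extracellular matrix, and the 45 genes described here are the collagen chain genes and the genes of enzymes that modify, cut and cross-link collagen. They were chosen by symbol from 19291 genes: every symbol made of COL, a number, the letter A and a number (33 chain genes), and 12 enzyme genes from a list of 16 names. The other 4 listed symbols, P4HB, PCOLCE, SERPINH1 and LEPREL1, were not analysed here under those symbols, though P3H2, the current name of LEPREL1, is given with the pathway genes below. The 5973 genes listed by an Ensembl identifier only could not be matched by symbol and are not among the members. Those with enough counts are part of the fits and of the shares over all genes. The data are mRNA sequencing of HA-VSMC, a cultured line labelled as rabbit (Oryctolagus cuniculus), in 3 groups of 3 libraries: cells with β-estradiol at 50 nM, cells with β-estradiol at 250 nM, and control cells. β-Estradiol is the main ovarian estrogen, and the study was set up to find how estrogen acts in adenomyosis, the growth of endometrial tissue within the uterine muscle wall. Cells of the line grew in RPMI medium with fetal bovine serum and were harvested after 48 h. The estradiol was dissolved in DMSO with sodium hydrogen carbonate. The labels do not say whether control cells received that vehicle, and they tag control samples as estrogen-treated with a concentration of WT. The treatment text states 250 nM and no other concentration. Nothing in the labels says that the 3 libraries of a group came from separate cultures, and the spread behind each p-value may be technical only. HA-VSMC is also the name of a human aortic smooth muscle line; the species was not checked.

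Collagen chains fold in threes into a triple helix. In the endoplasmic reticulum, prolyl 4-hydroxylases modify prolines, which keeps the helix stable at body temperature, and lysyl hydroxylases modify lysines that later carry sugars and cross-links. After secretion, BMP1 removes the C-propeptide from fibril-forming procollagens, and the lysyl oxidase family oxidises lysines so that chains cross-link into strong fibrils. In arteries and in the uterine wall, smooth muscle cells make types I and III collagen for tensile strength and type IV collagen for the basement membrane around each cell.

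The libraries held 54718407 to 72274464 estimated counts; since about 4 of these stand for 1 fragment, that is 13679602 to 18068616 fragments. In all, 12324 genes had enough counts to be tested. The labelled cell type was checked against its markers in FPKM (fragments scaled to gene length and library size, so that levels of different genes can be compared). Of 8 smooth muscle markers measured, ACTA2, TPM2 and CALD1 had mean levels of 1286, 998 and 424 FPKM over all libraries, SMTN 27.8 and MYH11 5.18, while LMOD1 and MYOCD were at 0.450 and 0.406 and DES was at 0. Of 7 fibroblast markers measured, S100A4 and DCN were at 717 and 76.8 FPKM, FAP at 19.5 and DPT at 6.76. LUM, THY1 and PDGFRA were lower, at 5.47, 2.67 and 0.359 FPKM. The summed level of the 7 fibroblast markers overlapped between groups. None of 8 endothelial or 6 epithelial markers reached a mean of 1 FPKM. Of 6 leukocyte markers, LCP1 was at 92.5 FPKM, PTPRC at 0.00224 and ITGAM at 0. The estrogen receptor genes ESR1 and ESR2 averaged 0.226 and 0.211 FPKM. In such bulk samples, fewer cells of a type and less RNA per cell cannot be told apart.

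Fibril-forming chains dominated the transcripts of the 33 collagen chain genes analysed. COL1A2 and COL1A1, the chains of type I collagen, had mean levels of 2961 and 2076 FPKM over the 9 libraries and ranked 14 and 21 among all genes. COL3A1 (type III) followed at 1209.6 FPKM, COL5A2 (a type V chain) at 914 and COL12A1 (type XII, which decorates fibril surfaces) at 837. These 5 genes took 90.6% to 91.2% of the counts of the 33 chain genes in each library, and COL1A2 alone took 31.4% to 33.6%. Chains not among the 33 symbols, such as COL5A1, COL6A1 and COL6A3, are no part of these shares. Of the 33 chain genes, 11 had a mean of at least 10 FPKM, against all 12 enzyme genes.

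**Figure D1:**
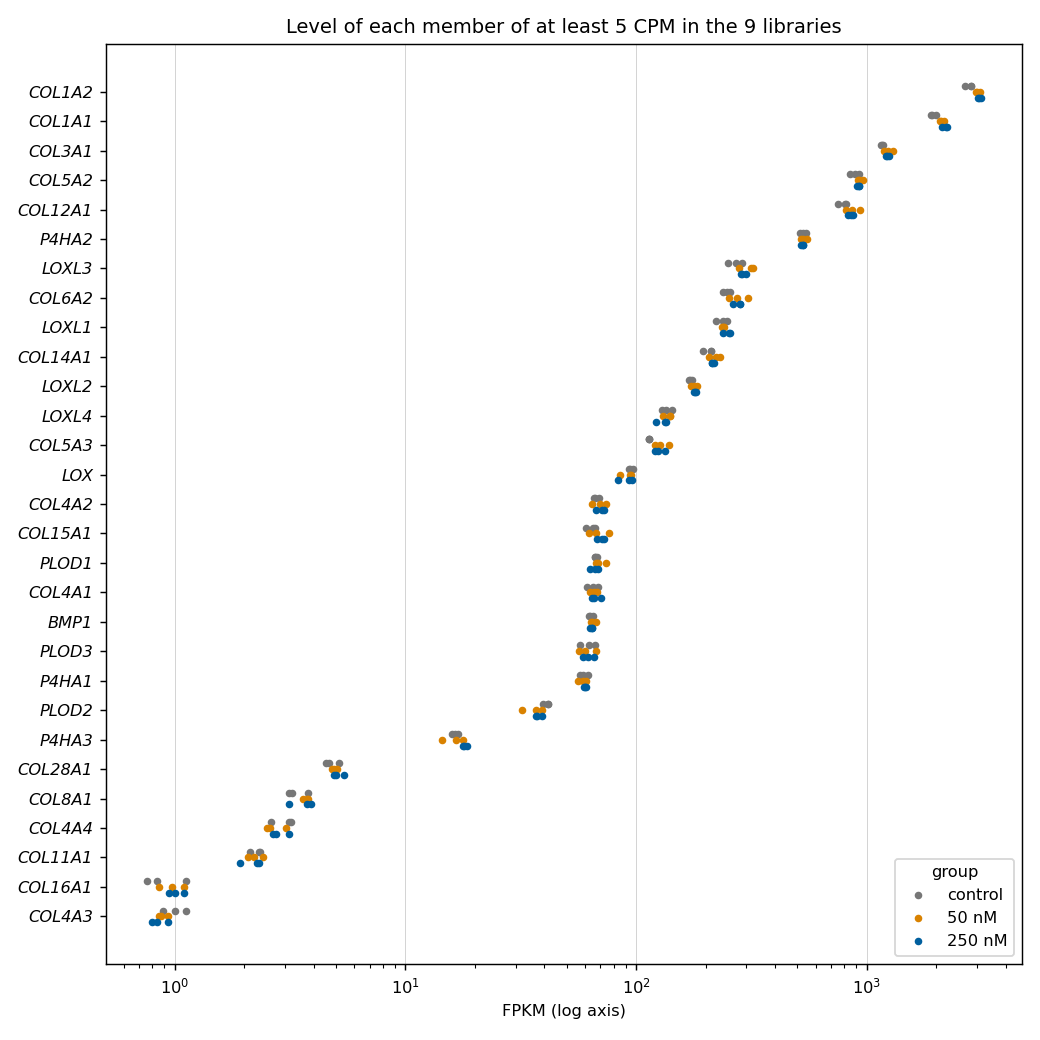
Level in FPKM (log axis) of the 29 members with a mean of at least 5 CPM, each dot a library, coloured by group. The type I chains lie highest, at 2961 and 2076 FPKM on average, and groups differ far less than genes do.

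After these 5, COL6A2 (a chain of the beaded filaments of type VI) had a mean of 267 FPKM, COL14A1 (type XIV, another fibril-surface collagen) 214 and COL5A3, a further type V chain, 123. The basement membrane chains COL4A2 and COL4A1 stood at 68.8 and 65.8 FPKM and COL15A1, a collagen of the zone next to basement membranes, at 67.8; the spreads of these 3 overlapped. COL28A1, COL8A1, COL4A4 and COL11A1 lay between 2.22 and 4.93 FPKM, and COL16A1 and COL4A3 at 0.963 and 0.915. Among the enzymes, P4HA2 was the highest at 529 FPKM, over P4HA1 at 59.2 and P4HA3 at 16.9; all 3 encode catalytic subunits of prolyl 4-hydroxylase. The cross-linking enzymes ran from LOXL3 at 288 FPKM through LOXL1 (241), LOXL2 (177) and LOXL4 (134) to LOX (92.3). PLOD1, PLOD3 and BMP1 lay close together at 67.6, 61.7 and 64.2 FPKM, and their libraries overlapped, while PLOD2 was lower at 38.2.

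A further 16 chain genes had means under 0.5 FPKM. COL22A1 and COL25A1 were listed at 0 in all 9 libraries, where 3 fragments would correspond to 0.166 to 0.219 CPM (counts scaled to library size), a limit that covers counting error only. COL6A5, COL6A6, COL9A1 and COL26A1 each had 4 units, about 1 fragment, in a single library. COL2A1, the cartilage collagen, had 0 to 5 units per library. These 7 genes were too low to test. The other 38 members were tested, 26 chains and 12 enzymes.

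The comparison of 50 nM estradiol with control asked which members responded to the lower concentration. Both chains of type I collagen rose by small amounts: COL1A1 by 13.4% and COL1A2 by 13.6%. The other 36 tested members did not pass, and 0 fell. Of the 38 tested, 2 were therefore called higher, where 1.55% of all genes tested were called higher, 1.7% lower and 3.25% in either direction (edgeR quasi-likelihood test, Benjamini-Hochberg adjusted p under 0.05 over 12324 genes). At an unadjusted p under 0.05, 10 members were higher and 0 lower, against 7.44% and 8.17% of all genes (15.6% in either direction). Of the 38 members, 32 had a log2 fold change above 0, against 49.4% of all genes. The median was 0.15 over the 26 chains, 0.06 over the 12 enzymes and -0.0020 over all genes. Among genes of at least 100 CPM, 65.6% lay above 0, and 21 of the 22 members of that level did; 3.31% of genes of that level were called higher. Values below are CPM scaled by TMM factors unless stated, in the order of replicates 1 to 3.

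COL1A1 had 7861, 8316 and 7858 CPM at 50 nM, against 6971, 6988 and 7243 CPM in controls (log2 fold change 0.18 ± 0.04 (SE), edgeR adjusted p = 0.0260). COL1A2 had 18384, 19311 and 18125 CPM at 50 nM, against 16652, 15847 and 16626 CPM in controls (0.18 ± 0.04, edgeR adjusted p = 0.0159). For both chains every 50 nM library lay above every control. The calls rested on few libraries: COL1A1 lost its call without 50 nM replicate 1 or 2 or any 1 control (edgeR adjusted p 0.0589 to 0.0959), and COL1A2 without 50 nM replicate 2 (0.0549). On log2(FPKM + 1) with limma neither passed (adjusted p = 0.239 for COL1A1 and 0.244 for COL1A2). Their log2 fold changes there were 0.13 and 0.13, beside a median of -0.05 over all genes. A fit to the control and 50 nM libraries alone called neither (edgeR adjusted p = 0.1002 for COL1A1 and 0.0775 for COL1A2). Under DESeq2 6 members passed at 50 nM: these 2, COL5A3, COL6A2, COL12A1 and LOXL3.

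The remaining fibril-forming chains did not pass at 50 nM. COL3A1 had 8056, 8619 and 7649 CPM at 50 nM, against 7206, 7516 and 7273 CPM in controls (0.15 ± 0.05, edgeR adjusted p = 0.113). COL5A3 had 757, 885 and 797 CPM at 50 nM, against 689.8, 699.5 and 689 CPM in controls. Its log2 fold change of 0.23 ± 0.06 was the largest among members of at least 5 CPM and just missed the threshold (edgeR adjusted p = 0.0518). The 50 nM libraries lay above the controls for COL3A1, COL5A3 and COL5A2, whose value was 0.13 ± 0.05. COL11A1, a chain of cartilage and fibril-core collagen, had 20.0, 17.6 and 18.2 CPM at 50 nM, against 18.5, 17.3 and 18.8 CPM in controls, and overlapped.

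Basement membrane chains overlapped between the groups. COL4A1 had 350.4, 366 and 335 CPM at 50 nM, against 314, 355 and 333 CPM in controls. COL4A2 had 347, 379.6 and 395 CPM at 50 nM, against 341, 348 and 358 CPM in controls. The log2 fold changes of these 2 were 0.07 ± 0.06 and 0.10 ± 0.06. The chains COL4A3 and COL4A4, which form the network of the kidney filter, had values below 0, -0.13 ± 0.11 and -0.08 ± 0.10. COL4A3 had 7.82, 7.75 and 8.36 CPM at 50 nM, against 7.71, 9.77 and 8.69 CPM in controls. COL4A4 had 14.97, 15.7 and 18.0 CPM at 50 nM, against 14.9, 18.2 and 18.2 CPM in controls.

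Of the collagens that bind fibrils or form filaments, COL6A2, COL12A1 and COL14A1 were separated from the controls without passing. COL6A2 had 1962, 2223 and 1791 CPM at 50 nM, against 1754, 1732 and 1632 CPM in controls (0.22 ± 0.07, edgeR adjusted p = 0.0930). COL12A1 had 9397, 10327 and 8797 CPM at 50 nM, against 7809.6, 8664 and 8396 CPM in controls (0.20 ± 0.06, edgeR adjusted p = 0.0746). COL14A1 had 1267, 1349 and 1179.6 CPM at 50 nM, against 1072, 1179.5 and 1169.6 CPM in controls. For COL6A2, COL12A1 and COL14A1 each 50 nM library lay above the highest control, in COL14A1 by a margin of under 0.1 CPM (1179.55 CPM in 50 nM replicate 3 and 1179.54 CPM in control replicate 2). Without 50 nM replicate 3, COL6A2, COL12A1 and COL3A1 passed (edgeR adjusted p = 0.0128, 0.0145 and 0.0262). COL16A1, a minor fibril-associated collagen, had 5.504, 6.23 and 4.77 CPM at 50 nM, against 6.03, 4.19 and 4.53 CPM in controls, and overlapped. COL15A1 had 266, 331 and 282 CPM at 50 nM, against 248, 276 and 267 CPM in controls; its 50 nM replicate 1 lay within the control range. COL8A1, a short-chain collagen that vascular cells make, had 20.7, 21.99 and 21.4 CPM at 50 nM, against 17.2, 18.0 and 20.9 CPM in controls, and COL28A1 had 29.7, 30.7 and 30.9 CPM against 30.5, 28.1 and 26.9 CPM; both overlapped.

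The low transmembrane and network chains are given as estimated counts, of which about 4 were taken as 1 fragment. COL13A1 had 0, 7 and 8 at 50 nM, against 26, 10 and 16 in controls. COL17A1, of the epithelial hemidesmosome, had 29, 38 and 39 at 50 nM, against 37, 23 and 24 in controls. COL23A1 had 19, 12 and 6 at 50 nM, against 10, 1 and 5 in controls. These are a few fragments per library, and their log2 fold changes of -1.60 ± 1.04, 0.50 ± 0.46 and 1.37 ± 0.80 had 95% intervals that spanned 0. COL13A1 was the 1 member whose 50 nM libraries all lay below the controls once scaled to depth, as did 10.1% of all genes. COL8A2 had 41, 29 and 43 at 50 nM, against 50, 36 and 25 in controls. COL11A2, a further fibril-forming chain, had 42, 59 and 33 at 50 nM and 38, 72 and 61 at 250 nM, against 69, 28 and 72 in controls. COL24A1, another of that class, had 7, 10 and 24 at 50 nM and 28, 0 and 8 at 250 nM, against 9, 10 and 28 in controls. COL4A6, a basement membrane chain, had 8, 27 and 19 at 50 nM and 14, 20 and 24 at 250 nM, against 12, 0 and 24 in controls. COL9A2, of a cartilage fibril-surface collagen, had 33, 24 and 37 at 50 nM and 26, 26 and 20 at 250 nM, against 34, 43 and 19 in controls. COL21A1, also fibril-associated, had 0, 16 and 4 at 50 nM and 15, 20 and 18 at 250 nM, against 6, 11 and 12 in controls. None of these 5 passed in any comparison, and of the 5 the scaled levels were separated from the controls for COL21A1 at 250 nM.

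None of the 12 enzymes passed at 50 nM with edgeR, limma-voom called 0 and DESeq2 called LOXL3. At an unadjusted p under 0.05, 2 were higher and 0 lower, against 7.44% and 8.17% of all genes. LOXL3, a lysyl oxidase-like enzyme, had 902, 1033 and 1024 CPM at 50 nM, against 893, 789.5 and 841 CPM in controls (0.23 ± 0.06, edgeR adjusted p = 0.0561). LOXL2 had 893, 964 and 909 CPM at 50 nM, against 868, 853 and 851 CPM in controls (0.10 ± 0.05, edgeR adjusted p = 0.297). Both were separated from the controls. LOX, the founding lysyl oxidase, overlapped, with 473, 436 and 476 CPM at 50 nM, against 454, 476 and 452 CPM in controls; its value was 0.0016 ± 0.06 with a 95% interval of -0.13 to 0.13. LOXL1 had 479, 499 and 482 CPM at 50 nM, against 485, 472 and 435 CPM in controls, and overlapped, as did LOXL4 (0.07 ± 0.06).

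PLOD2, the hydroxylase that acts on the telopeptide lysines used in cross-links, was the enzyme with a value below 0 at 50 nM (-0.13 ± 0.07, edgeR adjusted p = 0.370). It had 179, 172 and 146 CPM at 50 nM, against 175, 186 and 184 CPM in controls, and replicate 3 stood apart from replicates 1 and 2. PLOD1, which acts on lysines of the helix, had 178, 177 and 190.1 CPM at 50 nM, against 169.6, 168 and 166 CPM in controls, with every 50 nM library above every control (0.11 ± 0.05, edgeR adjusted p = 0.323). PLOD3, which also adds sugars, had 110.3, 106 and 122 CPM at 50 nM, against 118, 103 and 110.4 CPM in controls, and overlapped. BMP1 had 270.4, 285 and 265 CPM at 50 nM, against 262, 259.8 and 253 CPM in controls (0.08 ± 0.05), with no overlap. P4HA1 had 195, 191 and 178 CPM at 50 nM, against 182, 179 and 190.3 CPM in controls. P4HA2 had 962, 962 and 997 CPM at 50 nM, against 928, 920.0 and 956 CPM in controls, and P4HA3 had 20.9, 24.5 and 25.7 CPM against 23.5, 22.5 and 23.0 CPM. The 3 prolyl hydroxylase log2 fold changes lay between 0.03 and 0.06, and P4HA2 was separated from the controls while the other two overlapped. In all, 11 of 12 enzymes lay above 0, against 49.4% of all genes and 65.6% of genes of at least 100 CPM. On the deposited FPKM values 7 of 12 did, where the median of all genes was -0.05.

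**Figure D2:**
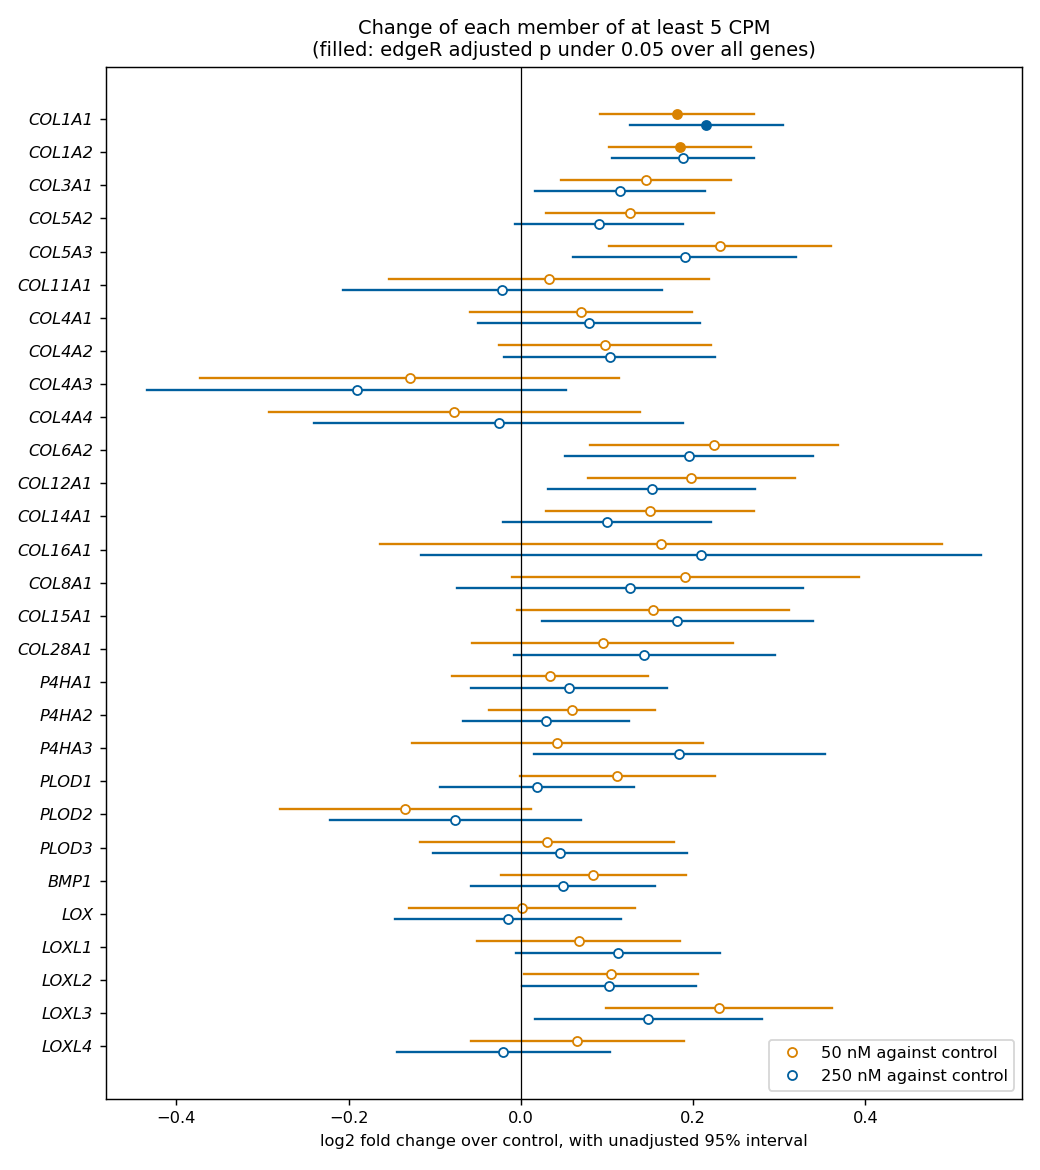
Log2 fold change over control (horizontal axis) of the 29 members with a mean of at least 5 CPM at 50 nM and 250 nM, with unadjusted 95% intervals; filled circles passed the edgeR test over all genes. The filled circles are COL1A1 (0.18 and 0.22) and, at 50 nM, COL1A2 (0.18).

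The comparison of 250 nM estradiol with the same controls asked which members responded to the higher concentration. COL1A1 rose by 16.1%, and 0 members fell. COL1A2 had a value close to that at 50 nM and narrowly missed the threshold. Of 38 members 1 was called higher, where 0.203% of all genes tested were called higher, 0.105% lower and 0.308% in either direction (edgeR adjusted p under 0.05). At an unadjusted p under 0.05, 10 members were higher and 0 lower, against 3.97% and 4.71% of all genes (8.67% in either direction). Of the 38, 28 had a log2 fold change above 0, against 48.2% of all genes. Among genes of at least 100 CPM, 61.6% lay above 0 and 0.590% were called higher, and 19 of the 22 members of that level lay above 0. The libraries did not overlap for 16 members, all higher at 250 nM, while 7.75% of all genes were separated upward, 7.76% downward and 15.5% in all. At 50 nM that held for 13 members higher and 1 lower (COL13A1), against 8.88% and 10.1% of all genes and 19% in all. The median log2 fold change at 250 nM was 0.11 over the 26 chains, 0.05 over the 12 enzymes and -0.0047 over all genes. Since both comparisons use the same 3 controls, their values are not independent.

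COL1A1 had 8322, 8351 and 7945 CPM at 250 nM, against 6971 to 7243 CPM in controls (log2 fold change 0.22 ± 0.04, edgeR adjusted p = 0.0401). COL1A2 had 18822, 18748 and 18414 CPM at 250 nM, against 15847 to 16652 CPM in controls (0.19 ± 0.04, edgeR adjusted p = 0.0611). Every 250 nM library lay above every control for both. The COL1A1 call was lost without any 1 of the control or 250 nM libraries or without 50 nM replicate 1 (edgeR adjusted p 0.0715 to 0.236), with limma-voom (0.0524) and on log2(FPKM + 1) (limma adjusted p = 0.285). It was also lost with a filter of 5 CPM in 3 libraries (0.0795) and with counts divided by 4 (0.0608). DESeq2 called both chains, with adjusted p = 0.00113 for COL1A1 and 0.00735 for COL1A2.

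Of the other fibril-forming chains, COL3A1 had 7846, 8126 and 7844 CPM at 250 nM, against 7206 to 7516 CPM in controls (0.11 ± 0.05, edgeR adjusted p = 0.467). COL5A3 had 776, 839.7 and 755 CPM at 250 nM, against 689 to 699.5 CPM in controls (0.19 ± 0.06, edgeR adjusted p = 0.315). COL5A2 had 7164, 7238 and 7054 CPM at 250 nM, against 6374 to 7000.2 CPM in controls (0.09 ± 0.05). In each of these 3 the groups did not overlap, and none passed. COL11A1 overlapped (-0.02 ± 0.09).

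COL6A2 had 1849, 2009 and 2001 CPM at 250 nM, against 1632 to 1754 CPM in controls (0.20 ± 0.07, edgeR adjusted p = 0.373). COL12A1 had 8907, 9465 and 9257 CPM at 250 nM, against 7809.6 to 8664 CPM in controls (0.15 ± 0.06). COL14A1 had 1201, 1226 and 1241 CPM at 250 nM, against 1072 to 1179.5 CPM in controls (0.10 ± 0.06). All 3 were separated from the controls without passing. COL15A1 had 284, 304 and 309 CPM at 250 nM, against 248 to 276 CPM in controls (0.18 ± 0.07), and was separated as well. COL16A1 had 5.55, 5.34 and 6.15 CPM at 250 nM, against 4.19 to 6.03 CPM in controls; its value of 0.21 ± 0.15 was the second largest among members of at least 5 CPM, and the groups overlapped. COL28A1 had 30.04, 31.0 and 33.4 CPM at 250 nM, against 26.9 to 30.5 CPM in controls, and COL8A1 had 21.2, 17.9 and 22.2 CPM against 17.2 to 20.9 CPM. Both overlapped.

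COL4A2 had 376, 389 and 359 CPM at 250 nM, against 341 to 358 CPM in controls, a narrow separation (0.10 ± 0.06). COL4A1 had 345, 373 and 340.1 CPM at 250 nM, against 314 to 355 CPM in controls, and overlapped (0.08 ± 0.06). COL4A3 had 8.31, 7.12 and 7.49 CPM at 250 nM, against 7.71 to 9.77 CPM in controls; its value of -0.19 ± 0.11 was the lowest among members of at least 5 CPM, and its replicate 1 lay within the control range. COL4A4 had 18.3, 16.3 and 15.8 CPM at 250 nM, against 14.9 to 18.2 CPM in controls. Among the low chains, COL13A1 had 0, 25 and 27 estimated counts at 250 nM, COL17A1 34, 18 and 20, COL23A1 8, 12 and 20 and COL8A2 14, 25 and 31, and all overlapped with the controls.

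No enzyme passed at 250 nM with edgeR, limma-voom or DESeq2. At an unadjusted p under 0.05, 3 were higher and 0 lower, against 3.97% and 4.71% of all genes. Of the 12, 9 lay above 0, against 48.2% of all genes and 61.6% of genes of at least 100 CPM. On FPKM values 7 of 12 did, where the median of all genes was -0.04. The 3 with an unadjusted p under 0.05 were P4HA3, LOXL3 and LOXL2. P4HA3 had 26.7, 26.0 and 25.8 CPM at 250 nM, against 22.5 to 23.5 CPM in controls (0.18 ± 0.08, edgeR adjusted p = 0.520). LOXL3 had 915, 965 and 916 CPM at 250 nM, against 789.5 to 893 CPM in controls (0.15 ± 0.06). LOXL2 had 906, 935 and 919.7 CPM at 250 nM, against 851 to 868 CPM in controls (0.10 ± 0.05). All 3 were separated from the controls. LOXL1 had 477, 514 and 515 CPM at 250 nM, against 435 to 485 CPM in controls (0.11 ± 0.06). LOX had 465, 486 and 417 CPM at 250 nM, against 452 to 476 CPM in controls (-0.01 ± 0.06, 95% interval -0.15 to 0.12), and LOXL4 had a value of -0.02 ± 0.06. LOXL1, LOX and LOXL4 overlapped with the controls. PLOD2 had 177, 169.8 and 169.6 CPM at 250 nM, against 175 to 186 CPM in controls (-0.08 ± 0.07). PLOD1 had 175, 172 and 164 CPM and PLOD3 119.6, 114 and 108 CPM at 250 nM, and both overlapped with the controls. P4HA1 had 192, 191 and 191 CPM at 250 nM, against 179 to 190.3 CPM in controls, a separation of under 1 CPM. P4HA2 had 954, 945 and 961 CPM and BMP1 266, 270.5 and 265 CPM at 250 nM; BMP1 lay above the controls (253 to 262 CPM) and P4HA2 did not.

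**Figure D3:**
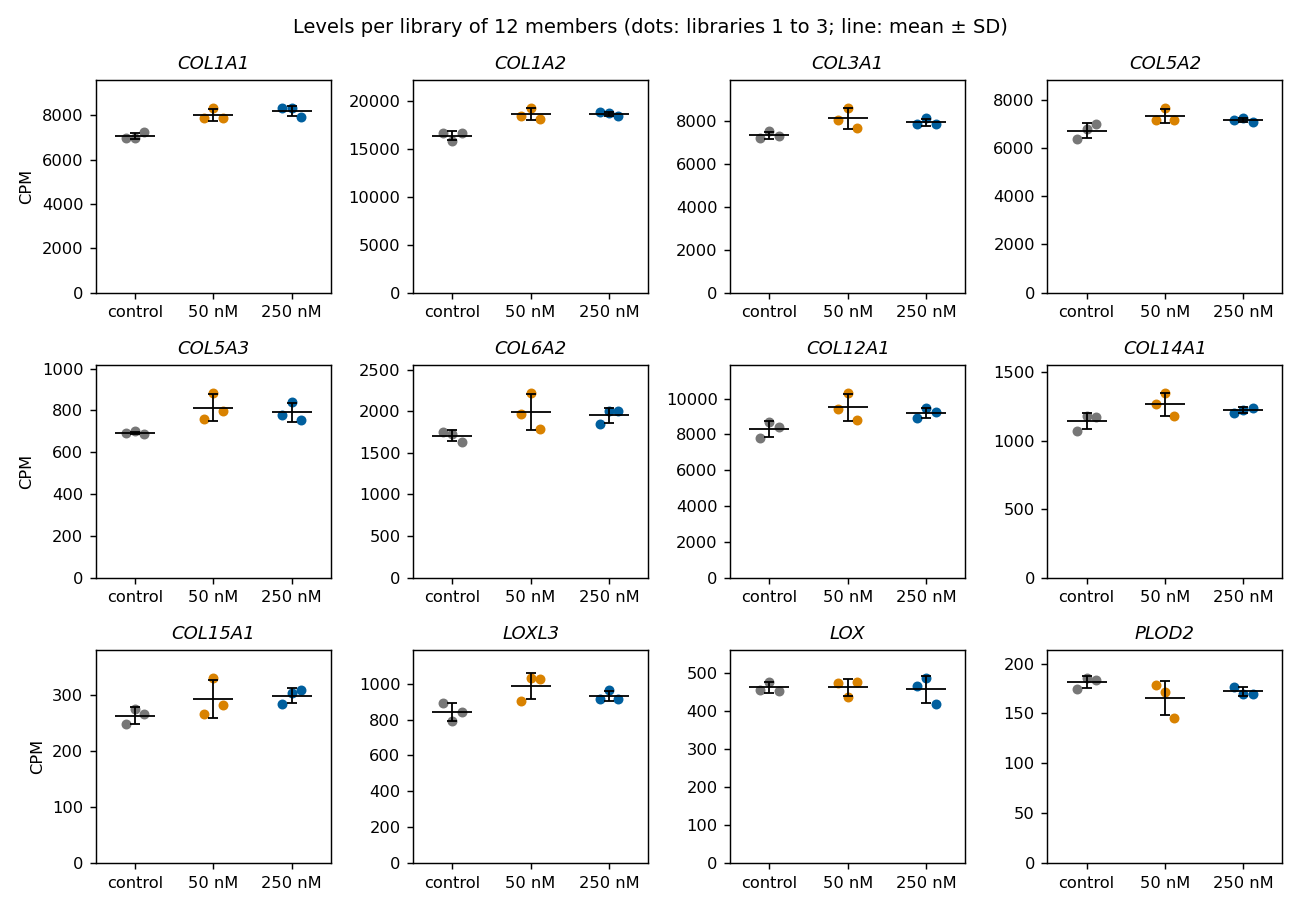
CPM (vertical axes, from 0) of 12 members in the 3 groups; dots are libraries 1 to 3 and lines the mean ± SD. COL1A1 averaged 7067 ± 153 CPM in controls, 8012 ± 264 at 50 nM and 8206 ± 227 at 250 nM, while LOX averaged 461 ± 13.5, 461 ± 22.2 and 456 ± 35.6 CPM.

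The 2 concentrations were also compared with each other. No member passed at 250 nM against 50 nM with edgeR, limma-voom or DESeq2, and 0 had an unadjusted p under 0.05, where 0.187% of all genes were called higher and 0.138% lower (0.325% in either direction) and 3.01% and 2.67% had an unadjusted p under 0.05 (5.68% in either direction). Of the 38 members, 16 lay above 0, against 48.8% of all genes, and among those of at least 100 CPM 9 of 22 did, against 38.4%. COL1A1 averaged 8206 ± 227 CPM at 250 nM and 8012 ± 264 CPM at 50 nM (SD, n = 3 each), with a log2 fold change of 0.03 and a 95% interval of -0.05 to 0.12. COL1A2 averaged 18661 ± 217 CPM at 250 nM and 18607 ± 624 CPM at 50 nM, with an interval of -0.08 to 0.09. Missing the threshold does not show that the concentrations acted alike: with 3 libraries a group, these unadjusted intervals hold differences in either direction. The libraries were separated for P4HA3 (higher at 250 nM, 0.14 ± 0.08) and for PLOD1, P4HA2 and COL8A2 (lower at 250 nM, -0.09 ± 0.05, -0.03 ± 0.05 and -0.84 ± 0.47), so for 1 member upward and 3 downward, against 5.94% and 5.57% of all genes (11.5% in all). Taking all 3 groups in a single F test, COL1A1 and COL1A2 were the 2 of 38 members past the threshold, a share of 5.26% (edgeR adjusted p = 0.0213 for COL1A1 and 0.0206 for COL1A2), where 1.86% of all genes passed.

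The summed collagen share was higher in the estradiol libraries. All 33 chain genes together held 5.52, 5.82 and 5.43% of counts at 50 nM, against 5.10, 5.09 and 5.24% in controls. At 250 nM they held 5.61, 5.64 and 5.52%. All 6 estradiol libraries lay above all 3 controls; no test is given, because the members were chosen with results of these data known. Without COL1A1, COL1A2 and COL3A1, the other 30 chains held 2.13, 2.30 and 2.08% at 50 nM and 2.104, 2.17 and 2.12% at 250 nM. In controls they held 1.92, 2.03 and 2.05%. All 6 estradiol libraries still lay above all 3 controls, by a narrow margin, while the 2 concentrations overlapped. The 12 enzymes held 0.494, 0.503 and 0.514% at 50 nM and 0.5004, 0.505 and 0.491% at 250 nM, against 0.504, 0.478 and 0.490% in controls, and these overlapped.

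**Figure D4:**
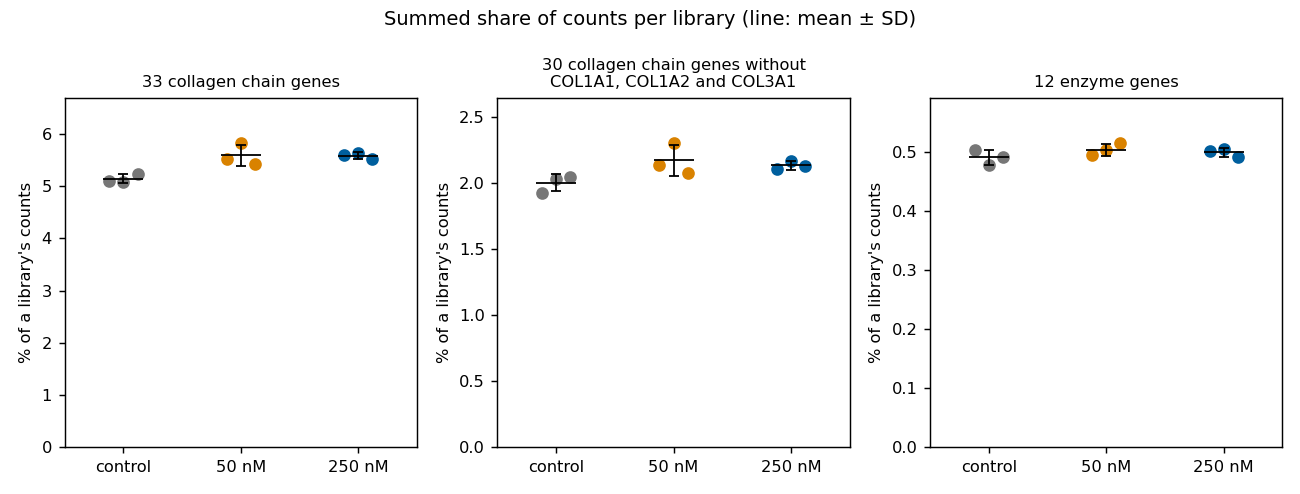
Share of each library's counts (%, vertical axes from 0) held by the 33 collagen chain genes, by the 30 without the type I and III chains and by the 12 enzymes; dots are libraries and lines the mean ± SD. The collagen share averaged 5.14 ± 0.0848% in controls, 5.59 ± 0.205% at 50 nM and 5.59 ± 0.0649% at 250 nM.

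Within each group, many collagen genes had their highest or lowest level in the same library. Of the 11 chains of at least 100 CPM, 10 had their highest 50 nM level in replicate 2, against 41.7% of the 1694 genes of that level, and 7 had their lowest in replicate 3, against 44.5%. The exception in replicate 2 was COL4A2, which was highest in replicate 3. Of the 11 enzymes of that level, 4 were highest in replicate 2 and 4 in replicate 3. The coefficient of variation of the 11 chains had a median of 3.83% in controls, 6.54% at 50 nM and 3.06% at 250 nM, and its highest value was 11.6%, for COL15A1 at 50 nM. At 250 nM, 8 of the 11 chains were highest in replicate 2, against 40.3% of genes of that level, and 7 lowest in replicate 3, against 32.6%. In controls, 6 were highest in replicate 2, against 48.5%, and 8 lowest in replicate 1, against 43.8%. Without 50 nM replicate 2, 0 members were called at 50 nM, and without 50 nM replicate 3 it was 6. Calls over all genes moved the same way. They were 191 higher and 210 lower with all libraries, 94 and 117 without replicate 2, and 333 and 231 without replicate 3.

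**Figure D5:**
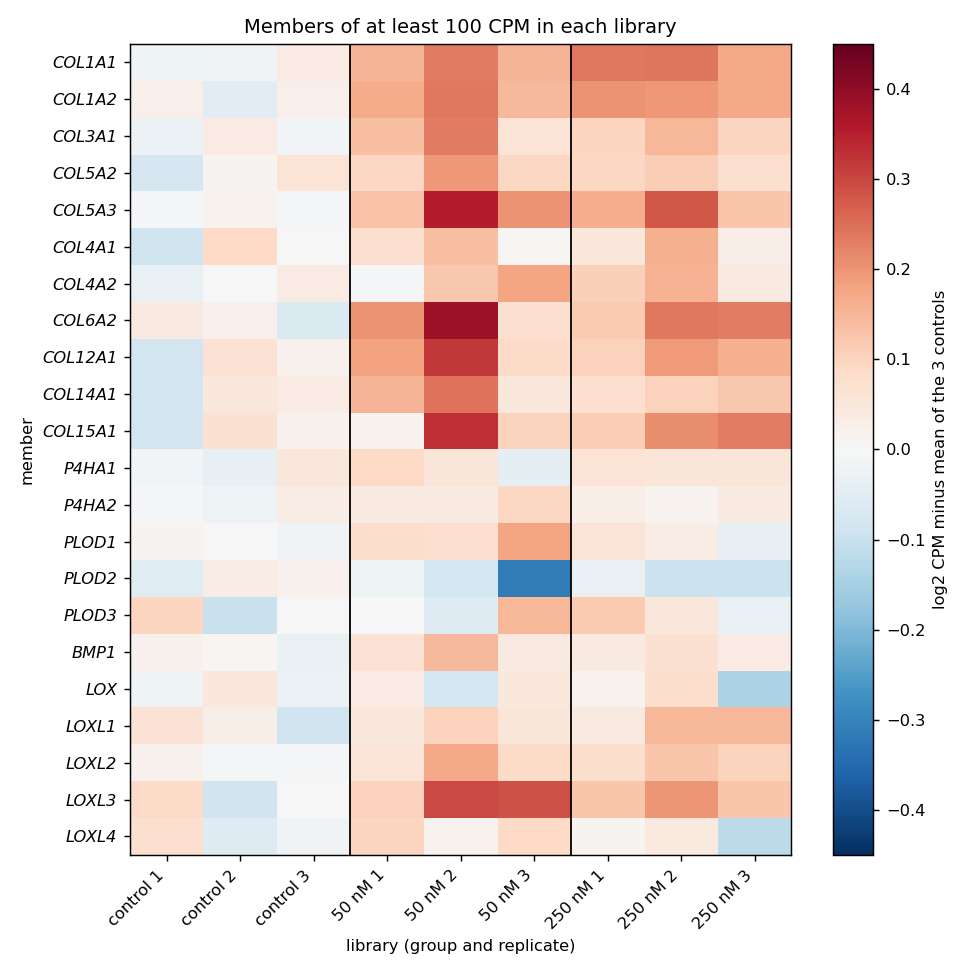
Log2 CPM of each member of at least 100 CPM (rows) in each library (columns) minus the mean of the 3 controls. The 11 collagen rows are mostly red (above the control mean) in the 6 estradiol libraries, and 10 of the 11 are darkest within the 50 nM group in replicate 2. PLOD2 is darkest blue in 50 nM replicate 3.

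The proportions of chains that assemble together were compared per length. Type I collagen is built from COL1A1 and COL1A2 chains, with COL1A1 in excess in the protein; the ratio of their FPKM levels was 0.691, 0.696 and 0.700 at 50 nM and 0.714, 0.720 and 0.697 at 250 nM, against 0.676, 0.712 and 0.704 in controls. The ratio of COL4A1 to COL4A2 was 1.02, 0.977 and 0.858 at 50 nM and 0.929, 0.970 and 0.958 at 250 nM, against 0.932, 1.03 and 0.942 in controls. Both ratios overlapped between all groups. The ratio of COL3A1 to COL1A1 was 0.595, 0.601 and 0.565 at 50 nM and 0.547, 0.565 and 0.573 at 250 nM, against 0.600, 0.624 and 0.583 in controls; the 250 nM libraries lay below the controls by a narrow margin. In the RefSeq table of the rabbit assembly mOryCun1.1, used for names and order only, all 45 members were found, and 4 pairs are direct protein-coding neighbours: COL4A1 with COL4A2, COL4A3 with COL4A4, COL3A1 with COL5A2, and COL6A5 with COL6A6. Their mean levels were 65.8 and 68.8 FPKM in the first pair, 0.915 and 2.84 in the second, 1209.6 and 914 in the third, and 0.000694 and 0.000950 in the last. Whether counting used strand is not given in the sources used here, so overlapping neighbours could share counts.

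Other genes of the collagen pathway were examined from 3 lists. Of 25 tested genes for further modification, folding, export and processing, such as the prolyl 3-hydroxylases, FKBP10, SPARC and the N-proteinase ADAMTS2, 0 passed in either comparison with control by edgeR, limma-voom or DESeq2; at an unadjusted p under 0.05, 3 were higher at 50 nM and 2 at 250 nM, and 0 were lower, where 7.44% of all genes were higher at 50 nM and 3.97% at 250 nM. Their median log2 fold change was 0.01 at 50 nM and 0.04 at 250 nM. P3H2, the current name of LEPREL1, had values of -0.02 ± 0.08 at 50 nM and 0.02 ± 0.08 at 250 nM. ADAMTS2 had 426, 431 and 436 CPM at 50 nM, against 396, 409 and 384 CPM in controls (0.12 ± 0.05, edgeR adjusted p = 0.215).

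Of 21 tested collagen receptors, uptake receptors and fibril-binding proteins, THBS1 and TGFBI rose at 50 nM and THBS1 at 250 nM, and 0 fell, where 1.55% of all genes were called higher at 50 nM and 0.203% at 250 nM. DESeq2 also called THBS2 higher at 50 nM. THBS1, a matricellular protein, had log2 fold changes of 0.50 ± 0.06 at 50 nM and 0.32 ± 0.06 at 250 nM (edgeR adjusted p = 0.000325 and 0.0393). TGFBI, a matrix protein that binds collagens and integrins, had 5403, 5599.7 and 5549 CPM at 50 nM, against 4867, 4976 and 4710.3 CPM in controls (0.19 ± 0.04, edgeR adjusted p = 0.0209), with a value of 0.09 ± 0.04 at 250 nM. ITGA11, a subunit of a receptor for fibrillar collagen, had 516, 574 and 502 CPM at 50 nM, against 488, 488 and 464 CPM in controls (0.14 ± 0.06, edgeR adjusted p = 0.215). The median of this list was 0.07 at 50 nM and 0.08 at 250 nM.

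Of 25 tested regulators of collagen transcription, 3 rose at 50 nM and 0 fell, where 1.55% of all genes were called higher and 1.7% lower. At an unadjusted p under 0.05, 7 were higher and 3 lower at 50 nM, against 7.44% and 8.17% of all genes. For this list 0 passed at 250 nM with edgeR or limma-voom, where 3 were higher and 2 lower at an unadjusted p under 0.05 (3.97% and 4.71% of all genes) and DESeq2 called SMAD7 lower. TGFBR2, a TGF-β receptor, had 1143, 1298 and 1087 CPM at 50 nM, against 987, 1010.1 and 976 CPM in controls (0.25 ± 0.06, edgeR adjusted p = 0.0341). SOX9, which drives cartilage collagen genes, had 201, 187 and 182 CPM at 50 nM, against 151, 163 and 151 CPM in controls (0.29 ± 0.06, edgeR adjusted p = 0.0131). MRTFA, a coactivator of SRF, was the third (0.27 ± 0.06, edgeR adjusted p = 0.0133). DESeq2 called 6 of this list higher at 50 nM: these 3, SMAD3, TGFBR1 and SMAD7. The list's median was -0.01 at 50 nM and 0.02 at 250 nM. Cartilage genes otherwise stayed low, with mean levels of 0.247 FPKM for ACAN, 0.0196 for MATN1, 0.140 for MATN3 and 0.00614 for COL2A1. The summed level of the 5 chondrocyte markers was 96.4 to 105 FPKM at 50 nM and 84.5 to 93.0 at 250 nM, against 82.4 to 88.0 FPKM in controls, most of it SOX9; its part in the collagen values was not tested.

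SMAD7, an inhibitor of TGF-β signalling, differed between the concentrations. It had 14.8, 14.5 and 17.6 CPM at 250 nM, against 26.4, 23.2 and 24.1 CPM at 50 nM (-0.65 ± 0.09, edgeR adjusted p = 0.00180). In controls it had 20.0, 20.3 and 19.1 CPM, and neither concentration passed against them (edgeR adjusted p = 0.0654 at 50 nM and 0.163 at 250 nM). TGFB2, a TGF-β ligand, had values of 0.21 ± 0.08 at 50 nM and 0.09 ± 0.08 at 250 nM and did not pass. SMAD3, which carries TGF-β signals to collagen promoters, had values of 0.32 ± 0.09 at 50 nM and 0.32 ± 0.09 at 250 nM (edgeR adjusted p = 0.0524 and 0.176).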

How the data were processed

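Per the labels' protocols, RNA was isolated with TRIzol and mRNA libraries were made with a small RNA preparation kit. The authors deposited, for each of 9 libraries, a table of estimated counts and one of FPKM; the submitters' processing notes list Trim Galore, TopHat2 2.1.1, Cufflinks and Cuffdiff, without saying which made the tables. Genome build, annotation and strand use: not given in the sources used here. Whole-number counts piled up at 4, 8 and 12 (2440, 1287 and 802 values), though 5 occurred 1351 times. About 4 units were taken as 1 fragment, a scale inferred from these counts. The ratio of counts to FPKM between libraries varied by at most 0.0685% over 4035 genes. Libraries of a group differed by more than sampling noise (chi-square per degree of freedom of 3.00 or more), so none were merged. The tables held 0 columns of other samples.

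Genes were kept by filterByExpr (minimum count 10), and the whole table was fitted on all 9 libraries using edgeR 4.0.16 (R 4.3.3): TMM factors, quasi-likelihood test, Benjamini-Hochberg adjustment, threshold 0.05. SE values are the log2 fold change over the square root of F. The common biological coefficient of variation came to 8.92%. Values per library are given for members that passed, the 3 highest of each class, and the 3 largest rises and falls among members of at least 5 CPM; COL5A2, COL11A1, LOX, COL11A2, COL24A1, COL4A6, COL9A2 and COL21A1 were added after their values were seen, as was a single value a comparison for LOXL4. Members and lists were chosen with earlier results of these data known. Alternatives were DESeq2 1.42.0, limma-voom (limma 3.58.1), RLE and upper-quartile factors, other filters, only the groups compared, the replicate block, limma on log2 of FPKM plus 1 or 0.1, counts divided by 4, and leaving out each library. The fits were tested on simulated data. In a simulated comparison of 50 nM with control, edgeR called 24% of genes changed by 0.25 in log2. It called 71.7% of those changed by 0.5 and 79.6% of those changed by 1. Gene neighbours come from RefSeq.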

Additional observations from a re-analysis of the deposited data

Results flagged for a closer look

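No member met a rule for a closer look, and 2 regulators of collagen transcription did. SMAD7 differed between the concentrations by a test of the difference itself: the log2 fold change of 250 nM over 50 nM was -0.65 ± 0.09 (edgeR adjusted p = 0.00180), with all 3 libraries at 250 nM below and all 3 at 50 nM above the controls. CTGF, a matricellular growth factor, had 5235, 5196 and 5180.4 CPM at 250 nM, against 4692, 4584 and 4555 CPM at 50 nM. All 250 nM libraries lay above the control mean and all 50 nM libraries below it, and the difference did not pass with edgeR (0.17 ± 0.04, adjusted p = 0.167) or limma-voom, while DESeq2 called it. In controls CTGF had 4904, 4691 and 5124 CPM, which lay below the 250 nM libraries and overlapped with those at 50 nM.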

How the results depend on the processing

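Over 21 alternatives, 1716 of 1773 values of the 29 named members kept their side of the threshold, 27 lost a call and 30 gained one. No called value changed sign, but 65 values that passed under neither setting did: 13 at 50 nM, 20 at 250 nM and 32 between the concentrations. At 50 nM 2 members were called higher. The count was 6 with DESeq2 or with no filter, 4 with counts divided by 4, and 0 with only the groups compared or on any of the 3 FPKM settings. At 250 nM 1 member was called higher. There the count was 2 with DESeq2, no filter or only the groups compared, and 0 with limma-voom, a filter of 5 CPM in 3 libraries, counts divided by 4 or the FPKM settings. Leaving out 1 library gave 0 to 6 members at 50 nM and 0 to 2 at 250 nM. Over all genes it gave 94 to 333 called higher at 50 nM and 4 to 37 at 250 nM. None of the 21 alternatives called a member lower, or any at 250 nM against 50 nM. The cause of these moves was not tested. Over all genes, 191 were called higher and 210 lower at 50 nM, against 372 and 330 with DESeq2 and 98 and 291 on log2(FPKM + 1).

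Over all genes tested, the correlation of same-numbered deviations from group means lay between -0.03 and 0.04. A value over all genes cannot decide whether replicate numbers pair the libraries for the collagen chains. Of 11 chains, 10, 8 and 6 were highest in replicate 2 at 50 nM, at 250 nM and in controls. Of the 1694 genes of at least 100 CPM, 41.7%, 40.3% and 48.5% were highest there. Most chains were lowest in replicate 3 at both concentrations but in replicate 1 in controls. The shares of the 1694 genes lowest in those libraries were 44.5%, 32.6% and 43.8%. Whether same-numbered libraries shared a culture or day was not tested. With the replicate block, 7 members were called at 50 nM and 2 at 250 nM, and 0 at 250 nM against 50 nM. Over all genes, the block gave 258 higher and 234 lower at 50 nM, against 191 and 210 without it. At 250 nM it gave 28 and 15, against 25 and 13. The ratio of the mean collagen share at 250 nM over control was 1.09 in counts and 1.11 in FPKM. Without COL1A1, COL1A2 and COL3A1 it was 1.07. At 50 nM these 2 alternatives gave 1.11 in FPKM and 1.08 without the 3 chains. Chains of a few fragments could show no difference at this depth.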

Other observations

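The ratio of LOX to COL1A1 in FPKM was 0.0451, 0.0393 and 0.0454 at 50 nM and 0.0420, 0.0437 and 0.0394 at 250 nM, against 0.0489, 0.0511 and 0.0468 in controls, and the estradiol libraries lay below all controls. Since LOX had log2 fold changes of 0.0016 at 50 nM and -0.01 at 250 nM, this ratio restates the COL1A1 values of the report. The ratio of PLOD2, the telopeptide lysyl hydroxylase, to PLOD1, the helical one, was 0.569, 0.547 and 0.434 at 50 nM and 0.573, 0.558 and 0.586 at 250 nM, against 0.582, 0.624 and 0.625 in controls; the 50 nM libraries lay below the controls and the 250 nM libraries overlapped with them. Both ratios were chosen with the values known and carry no test.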
